A study of Mus musculus with 12 samples.

Results

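The platelet-derived growth factor (PDGF) receptors Pdgfra and Pdgfrb were examined together with genes that mark fibroblasts without being structural parts of the matrix. The list held 9 genes: the receptors, the transcription factors Prrx1, Twist1 and Twist2, the surface proteins Thy1, Ly6a and Fap, and the secreted protein Serpinf1. They were chosen by symbol, and 8 of them had a row among the 10697 genes of the expression table. Fap, a surface serine protease of activated fibroblasts, had no row and was not analysed here.

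Primary mouse adult fibroblasts (MAFs) of wild-type C57BL6/j mice, grown out of cut tissue biopsies, were cultured for 24 h with thymol, a phenolic monoterpene of thyme and oregano, at 100 µM, or with an equal volume of its solvent DMSO. Each group held 6 libraries, and both grew in high-glucose medium with serum. RNA was measured by QuantSeq 3′ sequencing, which counts each transcript once at its 3′ end, so that levels of genes of different lengths could be set side by side. Levels are log2 CPM, the logarithm of read counts scaled to the size of the library, and 1 unit stands for a doubling. The labels name neither the tissue of the biopsies nor the culture or animal behind each library, so p-values measure the spread between these libraries, which may be technical.

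PDGF ligands are dimers that bring receptor chains together at the cell surface, and the receptors then phosphorylate each other and recruit enzymes and adaptors that drive division and migration. PDGFRα and PDGFRβ mark mesenchymal cells, and PDGFRβ is also prominent on the mural cells of vessels. PRRX1 and the TWIST factors are DNA-binding proteins of the embryonic mesenchyme whose genes remain active in many adult fibroblasts.

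Promoter windows of 300 bases, most of them before the RefSeq start site, were at hand for 5 of the 8 genes: Pdgfra, Serpinf1, Prrx1, Twist1 and Twist2. The longest run of letters that any pair of them shared was 16 bases, in Pdgfra and Twist2, and the next longest was 12. The windows of Pdgfra (chr5:75152001-75152300) and Twist2 (chr1:91801211-91801510) are shown because they hold this run, which is in capitals. Both are read 5′ to 3′ on the plus strand of GRCm38.p6 as RefSeq gives it.
Pdgfra: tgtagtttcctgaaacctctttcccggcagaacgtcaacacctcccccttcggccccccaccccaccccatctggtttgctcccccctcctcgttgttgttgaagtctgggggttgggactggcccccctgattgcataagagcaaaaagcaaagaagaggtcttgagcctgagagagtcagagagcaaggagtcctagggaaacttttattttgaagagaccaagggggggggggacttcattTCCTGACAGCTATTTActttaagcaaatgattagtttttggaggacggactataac
Twist2: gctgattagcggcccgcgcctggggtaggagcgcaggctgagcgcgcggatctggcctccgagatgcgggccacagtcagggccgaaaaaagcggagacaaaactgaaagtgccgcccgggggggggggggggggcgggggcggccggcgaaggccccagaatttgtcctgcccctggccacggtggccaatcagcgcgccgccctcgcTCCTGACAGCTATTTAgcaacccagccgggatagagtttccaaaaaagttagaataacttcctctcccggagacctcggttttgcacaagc
With the RefSeq start site as base 0, the run spans that of Pdgfra, from base -6 to base 9. It lies before that of Twist2, from base -41 to base -26. The Pdgfra gene start given below, 75152292, follows another annotation and lies after the run. Searched on both strands, the run was in 2 of 32851 promoter windows (0.00609%). These 2 are the windows of Pdgfra and Twist2, from which the run was taken, so the count could not be lower. How long a shared run chance would give was not tested. The E-box CANNTG, the kind of site that TWIST dimers bind, was in the windows of Pdgfra and Serpinf1 and in 72.3% of all windows. The homeodomain core TAATTA was in the window of Prrx1 alone among the 5 and in 5.29% of all windows. The TATA-box letters TATAAA were in the window of Twist1 alone among the 5 and in 13.6% of all windows. Each of these motifs was searched on both strands. These are matches of letters, and binding was not measured.

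The first question was how strongly these fibroblast genes were expressed without thymol. In the 6 DMSO libraries, the highest was Thy1 at 8.29 ± 0.091 log2 CPM (SD, n = 6), above 95.5% of all genes. Serpinf1 followed at 8.03 ± 0.077, Prrx1 at 7.77 ± 0.082, Pdgfrb at 6.55 ± 0.12 and Twist2 at 5.96 ± 0.15. These 5 were above the median of all genes, 5.02. Ly6a at 4.80 ± 0.28, Twist1 at 4.62 ± 0.11 and Pdgfra at 4.40 ± 0.16 were below it, and Pdgfra stood above 36.4% of all genes.

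The order from Thy1 down to Ly6a was the same in all 6 DMSO libraries, and the ranges of neighbours in it did not overlap. The narrowest steps were Thy1 over Serpinf1, by 0.26 log2 units, and Serpinf1 over Prrx1, also by 0.26. The ranges of the last neighbours overlapped. Ly6a exceeded Twist1 by 0.18 ± 0.33 (SD of the difference within a library, n = 6), which was within the spread, and Twist1 exceeded Pdgfra by 0.22 ± 0.14, each in 5 of the 6 libraries. In mean CPM, Pdgfrb transcripts were 4.46 times as abundant as Pdgfra transcripts, and Thy1 transcripts 14.9 times as abundant.

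**Figure D1:**
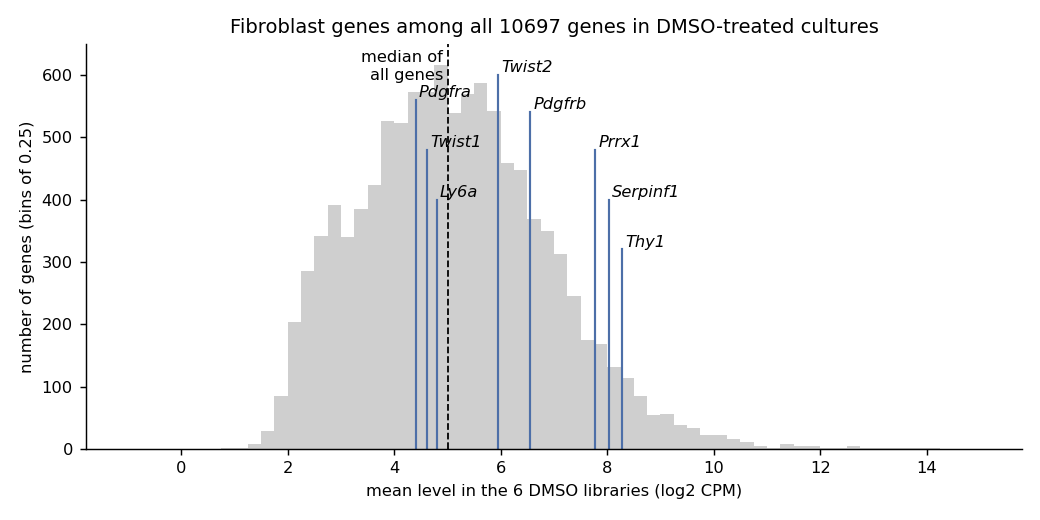
Distribution of mean levels (log2 CPM) of all 10697 genes in the 6 DMSO libraries, with the 8 fibroblast genes as blue lines whose heights carry no value. Thy1, Serpinf1 and Prrx1 lie in the upper tail, and Pdgfra, Twist1 and Ly6a lie below the dashed median of 5.02.

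On the mouse genome build GRCm38, Pdgfra lies on chromosome 5 (75152292 to 75198215, plus strand) and Pdgfrb on chromosome 18 (61045150 to 61085061, plus strand). Prrx1 (163245119 to 163313710, minus strand) and Twist2 (91801461 to 91848028, plus strand) are both on chromosome 1, and Twist1 is on chromosome 12 (33957671 to 33959829, plus strand). Thy1 lies on chromosome 9 (44043384 to 44048579, plus strand), Serpinf1 on chromosome 11 (75409769 to 75422701, minus strand) and Ly6a on chromosome 15 (74994877 to 74998031, minus strand). Pdgfra, Prrx1 and Twist2 overlap other annotated genes, none of which had a row.

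The labelled cell type was checked against markers. Of 12 fibroblast markers, which include 7 of the 9 genes above, 10 had a row, with a median level of 8.03 in DMSO, and Lum and Fap had none. Macrophage genes were also abundant: 21 of 23 had a row (Cd163 and Siglec1 had none), with a median of 8.45, and among them Lyz2, the lysozyme of phagocytes, stood at 13.6 and C1qa, a complement subunit, at 10.5. The level of the macrophage genes, summed as CPM, ran from 14.35 to 14.48 log2 units in DMSO and from 14.37 to 14.62 with thymol. Of these genes Ctss, a lysosomal protease, rose by 0.26 (adjusted p = 0.000141), Cybb, the catalytic subunit of the phagocyte oxidase, rose by 0.23 (adjusted p = 0.00607), and Itgam, an integrin chain, fell by 0.31 (adjusted p = 0.000705). In bulk RNA, fewer cells of a type and less RNA per cell cannot be told apart, and the part of the macrophage RNA in the results was not tested.

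Of other cell types, none of 15 lymphocyte markers and 2 of 10 endothelial markers had a row, and the latter, Cdh5 and Vwf, were at 1.86 and 1.78. Epithelial, Schwann and melanocyte, skeletal muscle and adipocyte lists each had 1 gene with a row, which were Krt10 at 2.75, Mbp at 5.08, Acta1 at 7.11 and Fabp4 at 6.38. Of 10 mural markers, 5 had a row. These were the contractile genes Cnn1 at 9.15 and Myh11 at 7.57, and Mcam at 5.94, Cspg4 at 3.73 and Des at 3.03. The mural markers Rgs5, Kcnj8, Abcc9, Notch3 and Higd1b had none. The 5 mural genes, summed as CPM, ran from 9.62 to 9.83 log2 units in DMSO and from 9.25 to 9.75 with thymol, and their part in the results was not tested. Myh11 fell with thymol by 0.37 (adjusted p = 0.00696; 0.27 and not called without thymol replicate 6) and Acta1, skeletal muscle actin, by 0.45 (adjusted p = 5.03e-05).

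The second question was whether thymol changed the fibroblast genes. In limma, fitted to all 10697 genes, 0 of the 8 passed an adjusted p-value of 0.05, against 2.22% of all genes (238), made up of 0.654% higher and 1.57% lower. At an unadjusted p-value under 0.05 there were 4 (Prrx1, Pdgfra, Thy1 and Ly6a), against 11.8% of all genes. The voom fit on recovered reads also called 0, with 4 at the unadjusted level. Means were higher with thymol for 4 genes and lower for 4, and the median log2 fold change of the 8 was -0.015, against 0.0026 for all genes. For 6 of the 8, the whole 95% interval of the fold change stayed within 1.5-fold in either direction, and the exceptions were Pdgfra and Ly6a.

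Among the receptors, Pdgfra ran from 4.23 to 4.64 in DMSO, with a median of 4.38, and from 4.25 to 5.01 with thymol, with a median of 4.79. In 5 of the 6 thymol libraries it was above every DMSO library, and the sixth lay at the low end of the DMSO range. Means were 4.40 ± 0.16 and 4.74 ± 0.27 (SD, n = 6 each), a log2 difference of 0.33 (SE 0.14, 95% interval 0.054 to 0.61, adjusted p = 0.281). Pdgfra therefore did not pass the test, and its interval reached from 1.04-fold to 1.53-fold. The mean number of reads behind a value was 149 with DMSO and 174 with thymol.

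Pdgfrb ran from 6.40 to 6.72 in DMSO, with a median of 6.58, and from 6.46 to 6.71 with thymol, with a median of 6.55. The groups overlapped along nearly their whole ranges. The log2 difference was 0.0021 (SE 0.076, 95% interval -0.15 to 0.15, adjusted p = 0.997), on means of 664 and 610 reads. Scaling the libraries by their medians turned its sign, to -0.0087. The fold change was thus bounded between 0.901 and 1.11.

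The balance of the receptors was taken as the Pdgfra level minus the Pdgfrb level in the same library. It ran from -2.38 to -1.78 in DMSO, with a median of -2.21, and from -2.46 to -1.45 with thymol, with a median of -1.74. With thymol, 4 libraries were above all DMSO libraries and 1 was below them all. The means were -2.15 ± 0.23 and -1.81 ± 0.35, a difference of 0.33 (SE 0.17; exact two-sided permutation test over 924 relabellings, p = 0.0844, and 0.169 adjusted over the 2 balances tested). This was not beyond the spread between libraries. When single libraries were left out, the difference ran from 0.26 to 0.46, with unadjusted exact permutation p-values from 0.00866 to 0.156. The p-value was under 0.05 only without thymol replicate 4 (difference 0.46, exact permutation p = 0.00866) and without DMSO replicate 4 (difference 0.41, exact permutation p = 0.0455). Odd-numbered libraries alone gave a difference of 0.48, and even-numbered libraries alone gave 0.19.

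**Figure D2:**
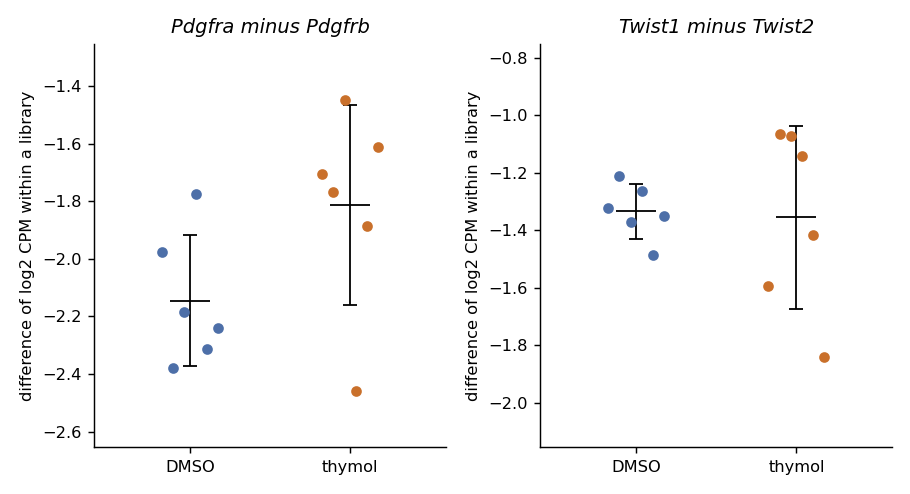
Differences of log2 CPM within each of the 12 libraries, for Pdgfra minus Pdgfrb (left) and Twist1 minus Twist2 (right), with points for libraries and bars for the mean ± SD of 6. Of the thymol points for Pdgfra minus Pdgfrb, 5 run from -1.89 to -1.45 and 1 lies at -2.46.

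Around the group means, Pdgfra and Pdgfrb had the lowest Pearson r of the 28 pairs that the 8 genes form (r = -0.569, Spearman rho = -0.497, 12 libraries). The pairs ran up to 0.44, for Pdgfra with Twist2, and had a median of -0.101. The genes most like Pdgfra in their deviations were Tanc2 (r = 0.906, rho = 0.874), Smad5 (r = 0.851, rho = 0.86) and Dph3 (r = 0.835, rho = 0.755), out of 5394 candidates with a mean of at least 5. For Pdgfrb they were Stx8 (r = 0.862, rho = 0.909), Tanc1 (r = 0.831, rho = 0.902) and Strbp (r = 0.828, rho = 0.832). These are the highest of all candidates over the same 12 libraries, and no test was made of them.

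Prrx1, the paired-related homeobox factor, was the only gene of the 8 whose groups did not overlap. It ran from 7.66 to 7.88 in DMSO, with a median of 7.75, and from 7.52 to 7.64 with thymol, with a median of 7.59, so that all 6 thymol libraries were below all 6 DMSO libraries. Of all genes, 1.68% had groups that did not overlap in either direction, and 1.16% were lower in this way. The log2 difference was -0.18 (SE 0.059, 95% interval -0.30 to -0.066, adjusted p = 0.092), on means of 1539 and 1251 reads, and the fold change of 0.880 had an interval from 0.811 to 0.956. When genes with a mean log2 CPM of at least 5 alone were tested, the adjusted p-value was 0.0498. Leaving out single libraries gave adjusted p-values from 0.0783 to 0.237.

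The TWIST factors, basic helix-loop-helix proteins, showed no difference beyond their spread. Twist1 ran from 4.50 to 4.77 in DMSO, with a median of 4.60, and from 4.45 to 4.99 with thymol, with a median of 4.66. Its log2 difference was 0.072 (SE 0.13, 95% interval -0.19 to 0.34, adjusted p = 0.915). The thymol values enclosed the whole DMSO range.

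Twist2 ran from 5.75 to 6.10 in DMSO, with a median of 5.97, and from 5.87 to 6.45 with thymol, with a median of 5.99. A single thymol library, replicate 6, made the upper end, and the next lay at 6.06. The log2 difference was 0.093 (SE 0.094, 95% interval -0.096 to 0.28, adjusted p = 0.793), and it was 0.013 without that library. Twist2 transcripts were 2.54 times as abundant as Twist1 transcripts in DMSO and 2.58 times with thymol, as ratios of mean CPM. The Twist1 minus Twist2 level averaged -1.33 ± 0.094 in DMSO and -1.36 ± 0.32 with thymol (difference -0.020, exact two-sided permutation p = 0.887).

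Thy1, a GPI-anchored surface glycoprotein used to sort fibroblasts, ran from 8.15 to 8.40 in DMSO, with a median of 8.29, and from 8.05 to 8.30 with thymol, with a median of 8.13. In 4 thymol libraries it was below every DMSO library. The log2 difference was -0.13 (SE 0.057, 95% interval -0.25 to -0.018, adjusted p = 0.304), on means of 2210 and 1852 reads. At this depth the interval kept the fold change between 0.844 and 0.988.

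Serpinf1, which encodes the secreted antiangiogenic serpin PEDF, ran from 7.94 to 8.12 in DMSO, with a median of 8.04, and from 7.94 to 8.08 with thymol, with a median of 7.98. The ranges nearly coincided. The log2 difference was -0.033 (SE 0.056, 95% interval -0.145 to 0.080, adjusted p = 0.908), which bounds the fold change between 0.904 and 1.06.

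Ly6a, the GPI-anchored antigen SCA-1 of mesenchymal and haematopoietic progenitors, varied most. It ran from 4.34 to 5.20 in DMSO, with a median of 4.84, and from 3.81 to 4.88 with thymol, with a median of 4.44. In 2 thymol libraries it was below every DMSO library, and the other values overlapped. The log2 difference was -0.35 (SE 0.15, 95% interval -0.65 to -0.041, adjusted p = 0.321), on means of 197 and 148 reads. It was -0.22 without thymol replicate 2, -0.15 with odd replicate numbers alone and -0.54 with even numbers alone. Ly6a is also the member whose reads could be confused with those of relatives. Of the windows of 50 bases in the last 500 bases of its transcripts, 8.13% were also found in Ly6c1, Ly6c2, Ly6i or I830127L07Rik, against 0% for each of the other members. Of these relatives, Ly6c1, Ly6c2 and Ly6i had no row in the expression table.

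**Figure D3:**
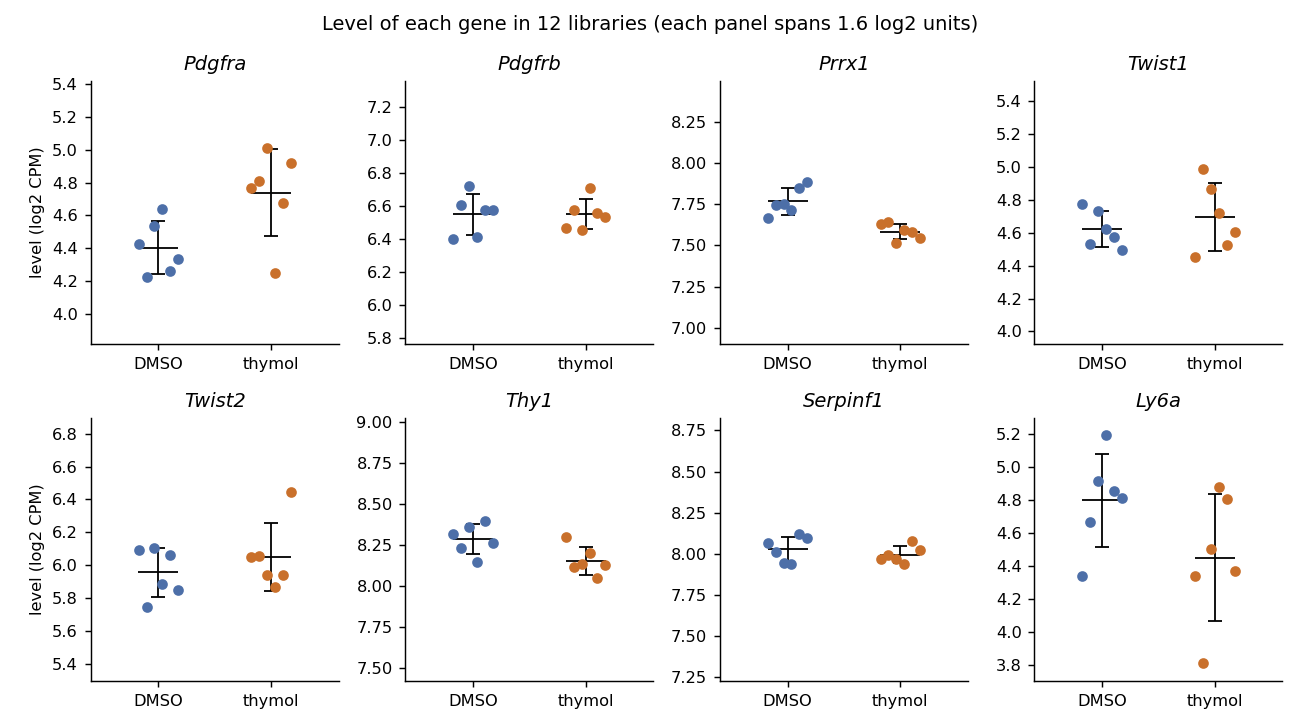
Level (log2 CPM) of each of the 8 genes in the 6 DMSO (blue) and 6 thymol (orange) libraries, with bars for the mean ± SD and the same span of 1.6 log2 units in every panel. The groups of Prrx1 do not overlap, those of Pdgfrb and Serpinf1 nearly coincide, and 1 thymol library of Twist2 stands at 6.45.

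Structural matrix genes, which the choice of members left out, served as the nearest comparison. Of 19 with a row, 2 passed the test, both lower: Col3a1, the type III collagen chain, by -0.54 (adjusted p = 4.42e-10), and Col1a1, a type I collagen chain, by -0.28 (adjusted p = 2.9e-05). The median log2 fold change of the 19 was -0.12, and 15 were lower in mean, against 4 of the 8 non-matrix genes. The level of the 10 fibroblast markers with a row, summed as CPM, ran from 13.05 to 13.22 in DMSO and from 12.88 to 12.98 with thymol. Its highest levels in DMSO were those of Col1a1 at 11.95 and Col1a2 at 11.71. Summed over the 8 genes, the ranges were 9.92 to 10.08 and 9.89 to 9.95, which overlapped. Whether the 8 genes and the matrix genes differed in response was not tested.

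**Figure D4:**
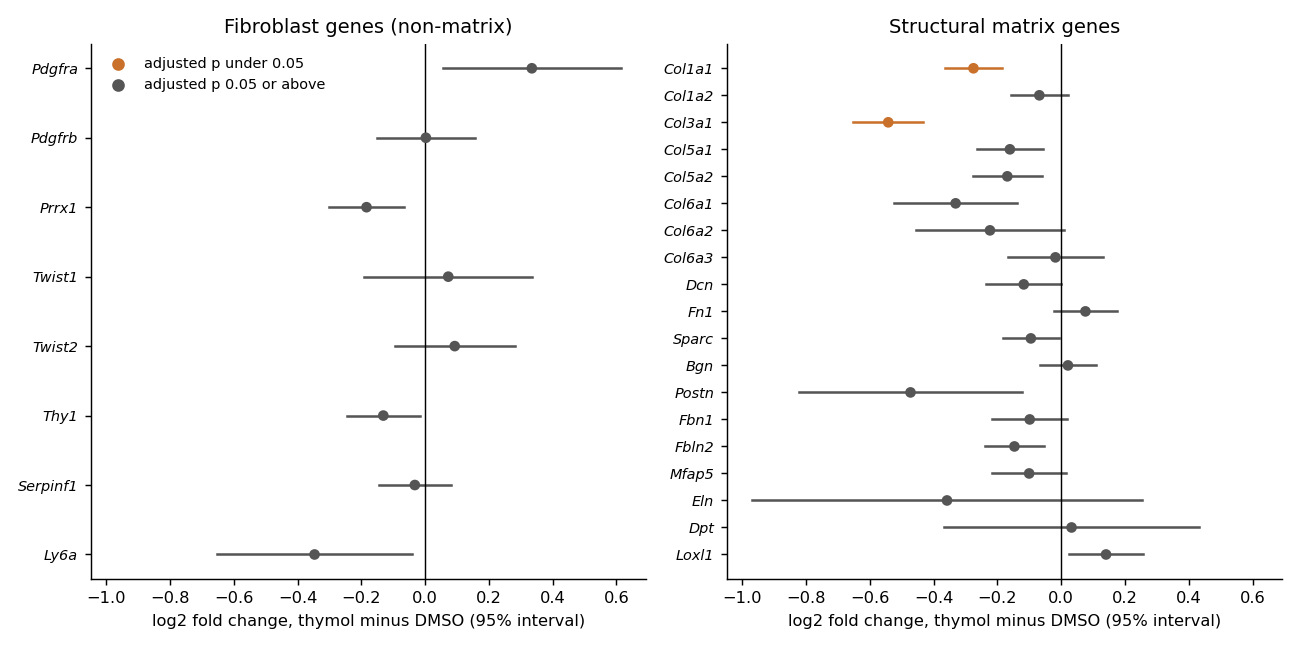
Log2 fold changes, thymol minus DMSO, with 95% intervals (limma) for the 8 fibroblast genes and for 19 structural matrix genes, orange where the adjusted p-value is under 0.05. Col3a1 at -0.54 and Col1a1 at -0.28 are the orange points, and none of the 8 is orange.

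The rest of the PDGF pathway was read from lists. All 4 ligand genes had a row and 0 passed the test. Pdgfa stood at 7.07 log2 CPM in DMSO and Pdgfb at 4.78. The 4 log2 fold changes ran from 0.025 to 0.073, with a median of 0.043. Of 37 genes for signal transducers 0 passed, with a median log2 fold change of -0.0042. The highest levels among them were those of Lrp1, an endocytic co-receptor of PDGFRβ, at 9.40 and the kinase Akt1 at 8.89.

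Of 17 negative regulators, 1 passed the test. Rasa1, the RAS GTPase-activating protein that docks on activated PDGFRβ, rose by 0.30 (adjusted p = 0.00428), and all 6 thymol libraries were above all 6 DMSO libraries (7.53 to 7.71 against 7.06 to 7.50). The median of the list was -0.032. Its highest levels were those of the ubiquitin ligase Cbl at 7.52 and the ERK phosphatase Dusp6 at 7.38. Rasa1 was not called in the even-numbered libraries taken alone, where the difference was 0.16.

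Early response genes, which growth factors induce within minutes to hours, had 18 rows, and 2 passed the test, both lower. Fos, a subunit of the AP-1 factor, fell by 0.77 (adjusted p = 0.000255), and Junb, another AP-1 subunit, fell by 0.23 (adjusted p = 0.041). For both, every thymol library was below every DMSO library. Junb kept its call in 4 of 12 fits that left out a library, those without DMSO replicate 5 or thymol replicate 4, 5 or 6, and its log2 fold change ran from -0.25 to -0.18 over the 12. The list's median was -0.058, and its other fold changes ran as high as 0.87 without passing the test. Ccn2 at 12.5 and Ccn1 at 8.87, both matricellular signalling genes, had its highest levels in DMSO.

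Among 14 other non-matrix fibroblast markers with a row, of 23 listed, 1 passed the test. Anpep, the membrane peptidase CD13, rose by 0.37 (adjusted p = 0.0175), though its call was lost without DMSO replicate 2 or 5 or thymol replicate 3 or 6, with log2 fold changes of 0.30 to 0.33. The median of the list was -0.030. Vim, the intermediate filament vimentin, at 11.4 and S100a4, a calcium-binding protein, at 11.3 had its highest levels in DMSO. The markers Cd34, Pi16, Dpp4, Scara5, Mme, Gpc3, Islr, Fbln7 and Enpp2 had no row.

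Of 23 other mesenchymal transcription factors with a row, 0 passed the test, and 15 were higher in mean, with a median log2 fold change of 0.035. Zeb2 at 7.65 and Klf4 at 6.96 had the highest levels. Of 8 dimer partners of TWIST and ID inhibitors, 0 passed, with a median of 0.054, and Tcf4 at 8.58 and Id3 at 8.51 were highest. Of dipeptidyl peptidases and the prolyl endopeptidase Prep, listed as like Fap, 4 had a row and 0 passed. Their median was 0.085, and Dpp8 at 6.31 and Prep at 5.71 were highest. Of 19 other LY6 and uPAR family genes 4 had a row and 0 passed, with a median of -0.083 and with Cd59a at 7.41 and Ly6e at 6.97 highest.

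Of 11 binding partners of THY1 and PEDF, 1 passed the test, Itgam, which is also among the macrophage genes above. The median of this list was -0.042, and Itgb5, an integrin chain of the receptor that THY1 can bind, was highest at 8.12.

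**Figure D5:**
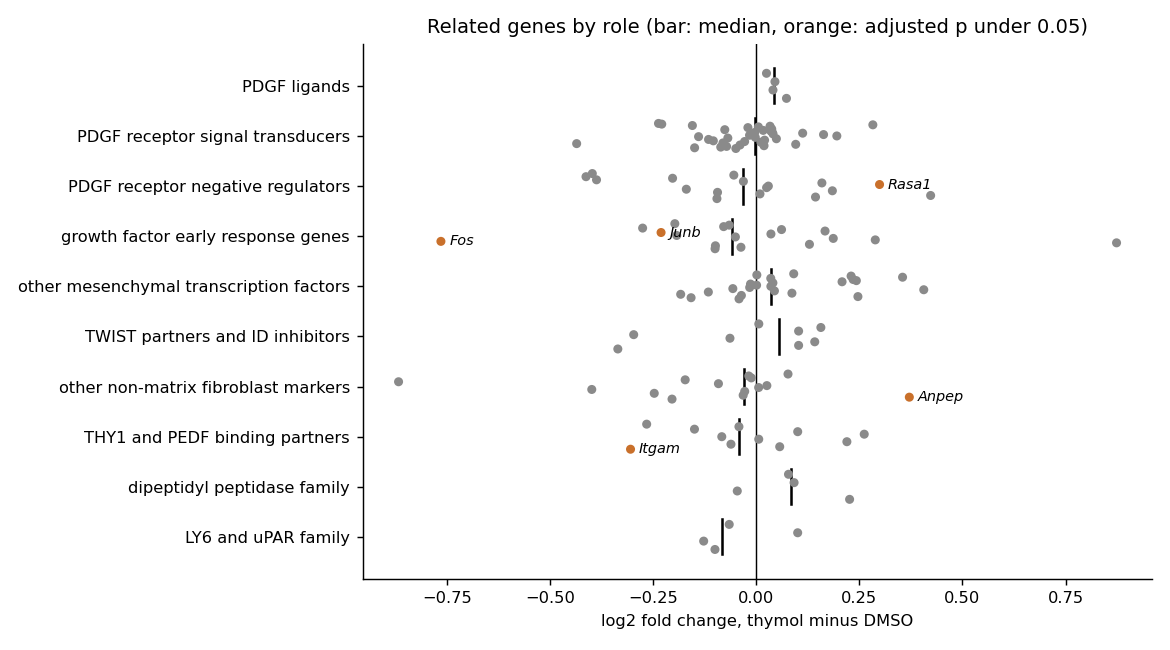
Log2 fold changes, thymol minus DMSO, of the genes in 10 lists around the receptors and fibroblast genes, with a point per gene, a bar at each list's median, and orange for an adjusted p-value under 0.05. Fos, Junb, Rasa1, Anpep and Itgam are the orange points, and every median lies between -0.083 and 0.085.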

How the data were processed

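The authors aligned QuantSeq reads with STAR 2.5.3 to GRCm38, counted them per gene with HTSeq 0.6.1, removed genes with few reads and applied TMM scaling. The deposited values are log2 CPM with a prior count, for 10697 genes in 12 libraries. Undoing the logarithm gave whole reads for 100% of the values under 200 reads (within 0.02 of a whole number), and these summed to 5435985 to 9049796 per library. The prior count shrinks fold changes where reads are few, and read totals cover counting error only.

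The test was limma 3.58.1 in R 4.3.3 (lmFit, and eBayes with a mean-variance trend) on all genes, without covariates, two-sided, with Benjamini-Hochberg adjustment and a threshold of 0.05. Adjusted p-values of single genes come from limma. The procedure was checked on simulated data with changes larger than those of the 8 fibroblast genes. Whether it would call changes of their size was not tested. Alternatives were a pseudocount of 10 CPM, a mean log2 CPM of at least 5, 2 other scalings, no trend, voom on the recovered reads, a block of replicate numbers, odd- or even-numbered libraries, and leaving out each library.

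The members and lists were chosen with earlier results of these data known. After the table was seen, old symbols of Ccn1 and Ccn2 and the leukocyte gene Lsp1 were taken off the lists. Named genes are the members, up to 4 genes per list with the smallest p-values past the threshold, the 2 with the highest mean level per list, and the 3 whose deviations from group means were most like those of Pdgfra and of Pdgfrb. Further genes are named as absent from the table, as sharing sequence or as the remaining mural markers with a row. Libraries with the same number did not deviate together (r from -0.0506 to 0.27), so numbers were not used as pairs.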

Additional observations from a re-analysis of the deposited data

Results flagged for a closer look

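Of 22 sets of 6 libraries examined, 2 held a library whose gap to its neighbour was large against the range of the set, where chance gives about 1 in 20. The level of Twist2 in thymol replicate 6 was 6.45 log2 CPM, and the nearest thymol library was at 6.06. The recovered reads of thymol replicate 5 numbered 9049796, and the nearest thymol library had 6585162.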

How the results depend on the processing

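Under the alternatives run, 0 of the 8 fibroblast genes passed the threshold, except that 1, Prrx1, passed when genes with a mean log2 CPM of at least 5 alone were tested, a fit that held 5 of the 8. Thy1, Serpinf1 and Prrx1 kept their direction under each alternative, and Pdgfra and Ly6a under each but that fit, which left them out. The log2 fold change of Pdgfrb changed sign with median centring (-0.0087), quantile normalization (-0.0025), voom (-0.0012) and odd-numbered libraries (-0.071), and it ran from -0.030 to 0.036 when single libraries were left out. In odd-numbered libraries Twist1 (-0.077) and Twist2 (-0.11) were lower with thymol. In even-numbered libraries Twist1 (0.22) and Twist2 (0.30) were higher, and neither gene passed the threshold in these fits. Twist1 minus Twist2 changed by 0.034 in odd-numbered and by -0.074 in even-numbered libraries. Its range without single libraries was -0.078 to 0.077. Pdgfra minus Pdgfrb ran from 0.26 to 0.46 without single libraries. The 238 genes past the threshold became 57 without a mean-variance trend (12 higher, 45 lower) and 70 in odd-numbered libraries (21 higher, 49 lower), against 167 in even-numbered libraries (55 higher, 112 lower), which are as many. The causes were not tested. Without the trend, Rasa1, Junb, Anpep, Itgam, Col1a1, Ctss, Cybb and Myh11 lost their calls, even-numbered libraries alone lost those of Rasa1, Fos, Junb and Cybb, and odd-numbered libraries alone those of Junb, Anpep, Itgam, Col1a1, Cybb and Myh11. Without single libraries the count ran from 172 to 270. With the replicate number as a block, 332 genes and 0 of the 8 passed, though the labels do not say that numbers pair libraries. Among the thymol libraries, the one of its own number was the most alike for 1 of 6 DMSO libraries. Pdgfra, Twist1 and Ly6a, with the fewest reads of the 8, also had the widest intervals, and how much of this is depth was not tested.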
